A study of Mus musculus with 4 samples.

Results

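The 10 genes described here mark successive stages between an oligodendrocyte precursor and a newly formed, not yet myelinating oligodendrocyte: Pdgfra, Cspg4, Lhfpl3, Neu4, Gpr17, Bcas1, Enpp6, Tns3, Tubb4a and Pdpn. They were taken by name as known stage markers, with earlier results of these data already known, and all 10 are among the 21861 features counted. Their counts were read in droplet-based 3′ libraries of single cells from brain tumors of 4 mice with the genotype hGFAP-cre::TP53Fl/Fl::lsl-MYCN. Mice 4 and 5 were 43 days old (P43), and mice 6 and 7 were 70 days old (P70). All 4 mice carried the same alleles, so there is no untreated or wild-type group. The hGFAP promoter drives Cre in radial glia and their offspring, among them oligodendrocytes, astrocytes and neurons, where Cre deletes a large stretch of Trp53 and switches on human MYCN from Rosa26. Each library is 1 tumor of 1 mouse, digested with papain and depleted of non-vital cells.

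An oligodendrocyte precursor (OPC) divides in response to platelet-derived growth factor, whose receptor is encoded by Pdgfra, and carries the proteoglycan NG2, encoded by Cspg4. On commitment it switches these genes off, passes through a short stage that expresses the receptor Gpr17, and becomes a premyelinating cell that expresses Bcas1, Enpp6 and Tns3 before it makes compact myelin. Mature oligodendrocytes (MOL) express myelin genes such as Mog, Mag and Mal. The tumors hold many cells that resemble this lineage (OL-like cells), and the values below place them against the precursors and mature oligodendrocytes found in the same tumors.

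The promoters of 4 members are shown as examples of different patterns over the classes: Pdgfra and Lhfpl3 were far lower in OL-like cells than in precursors, Enpp6 was far higher, and Pdpn was found in OL-like cells and hardly in mature ones. Each sequence is the 250 bases before the gene's RefSeq start on GRCm38.p6, read 5′ to 3′ on the gene's strand, for Pdgfra chr5:75152001-75152250 (plus strand), for Lhfpl3 chr5:22745804-22746053 (plus strand), for Enpp6 chr8:46986637-46986886 (plus strand) and for Pdpn chr4:143299565-143299814 (minus strand). Capitals mark 3 motifs searched on both strands: the E-box CACGTG known for MYC proteins, the E-box CAGCTG known for Olig proteins, and the SOX motif ACAAAG.
Pdgfra: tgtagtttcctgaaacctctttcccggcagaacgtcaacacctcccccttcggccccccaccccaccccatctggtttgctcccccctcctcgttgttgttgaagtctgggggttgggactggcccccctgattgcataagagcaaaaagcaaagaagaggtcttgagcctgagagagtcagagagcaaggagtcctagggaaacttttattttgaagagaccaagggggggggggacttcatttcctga
Lhfpl3: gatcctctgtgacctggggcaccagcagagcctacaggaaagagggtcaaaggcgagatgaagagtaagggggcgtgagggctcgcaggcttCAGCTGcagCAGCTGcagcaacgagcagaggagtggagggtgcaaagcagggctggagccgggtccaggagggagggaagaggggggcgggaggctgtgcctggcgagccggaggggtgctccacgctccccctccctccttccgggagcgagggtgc
Enpp6: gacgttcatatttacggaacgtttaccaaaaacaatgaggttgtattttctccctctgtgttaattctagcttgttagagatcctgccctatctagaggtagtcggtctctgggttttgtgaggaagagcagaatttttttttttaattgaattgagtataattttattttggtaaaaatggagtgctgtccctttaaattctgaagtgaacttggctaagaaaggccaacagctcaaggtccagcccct
Pdpn: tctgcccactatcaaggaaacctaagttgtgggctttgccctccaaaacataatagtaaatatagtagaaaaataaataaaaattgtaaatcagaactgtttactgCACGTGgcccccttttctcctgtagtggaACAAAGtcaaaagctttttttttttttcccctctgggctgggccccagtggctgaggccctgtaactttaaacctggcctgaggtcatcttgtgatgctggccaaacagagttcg

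Such promoter sequences were found for 8 of the 10 members. Pdpn held CACGTG, beginning 144 bases before the start, and ACAAAG, beginning 115 bases before it. Lhfpl3 held CAGCTG at 158 and at 149 bases before the start. No matches overlapped, and the other 6 members held none of the 3 motifs in this window. Of all 32851 promoter windows of this length, 6.02% held CACGTG, 13% held CAGCTG and 16.5% held ACAAAG. These matches describe letters and not bound sites.

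OL-like cells were clusters with at least 500 CPM of the transgene features human MYCN and luciferase together and with raised markers of the oligodendrocyte lineage. CPM is a gene's count of molecules, read as unique molecular identifiers (UMIs), for each 1000000 UMIs of the summed cells. The 10 members and 3 further stage lists were kept out of the genes used to cluster and to name cells, so that no class was defined by them. OPC and MOL were named by other markers of the same stages, such as Ptprz1 and Cacng4 for OPC and Mog, Mag and Mal for MOL. High precursor genes in OPC and high myelin genes in MOL are therefore in part set by the naming, and are not independent support. The lineage markers used for OL-like cells also include Mog, Mag and Mal. A level of myelin genes above OPC in OL-like cells can thus also be in part set by the naming. Clusters with OPC markers were named OPC when they lay under 500 CPM of the transgene features, so precursors that carry the transgene can be counted as OPC. A low level of precursor genes in OL-like cells can thus be in part set by the naming too. The libraries held 1739 to 3693 barcodes and 13106786 to 40621958 UMIs, and 10975 cells were kept, of which 4547 were OL-like (1781, 228, 415 and 2123 in mice 4, 5, 6 and 7). Only 140 cells were OPC, 23 of them in mouse 5 and 113 in mouse 7, and 176 were MOL, 108 in mouse 4 and 64 in mouse 5. Sums with fewer than 20 cells were left out, so OL-like sums came from 4 mice, OPC sums from mice 5 and 7, and MOL sums from mice 4 and 5.

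OPC and MOL both carried their defining markers. OPC sums held 1465 to 2199 CPM of Olig1, 3275 to 4450 CPM of Ptprz1 and 620 to 813 CPM of Cacng4. MOL sums held 2435 to 2965 CPM of Mog against 16.3 to 55.5 CPM in OL-like cells. Transgene counts separated the classes less cleanly for OPC than for MOL: OL-like cells held 880 to 3136 CPM, MOL 14.5 to 27.8 CPM, and OPC 277 CPM in mouse 5 and 256 CPM in mouse 7. At an equal depth of 2000 UMIs per cell, at least 1 transgene UMI was seen in 52.9% and 40.6% of these OPC. The shares were 1.61% and 7.81% in MOL of mice 4 and 5, and 2.5% to 10% in endothelial cells, the highest from 10 cells. At full depth, which differs between classes, they were 69.6% and 60.2% in OPC, 8.33% and 29.7% in MOL and 8.64% to 13.5% in endothelial cells. The OPC thus cannot be called free of the transgene. A further 434 cells, 325 of them in mouse 4, had mature markers and transgene counts between the limits, and were left out of the tests. Another cluster of 114 shallow cells (median 1025 UMIs) was left unassigned and also untested. It held 10755 CPM of the transgene features and had raised markers of the lineage. OL-like cells of mouse 4 were shallow (median 1520 UMIs) beside those of mouse 5 (23902.5 UMIs). The Trp53 counts (27.8 to 68.4 CPM in OL-like cells) check nothing, because the deleted stretch ends before the last exon and these libraries read the 3′ end. Over 4 Y-linked genes, the non-tumor cells of the mouse labelled female at P43 (mouse 4) held 223 CPM and those of the male (mouse 5) 0.634 CPM, so these labels go against the data, whereas those at P70 do not. Any 2 libraries shared between 1 and 3 cell barcodes among kept cells, 12 in all.

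**Figure D1:**
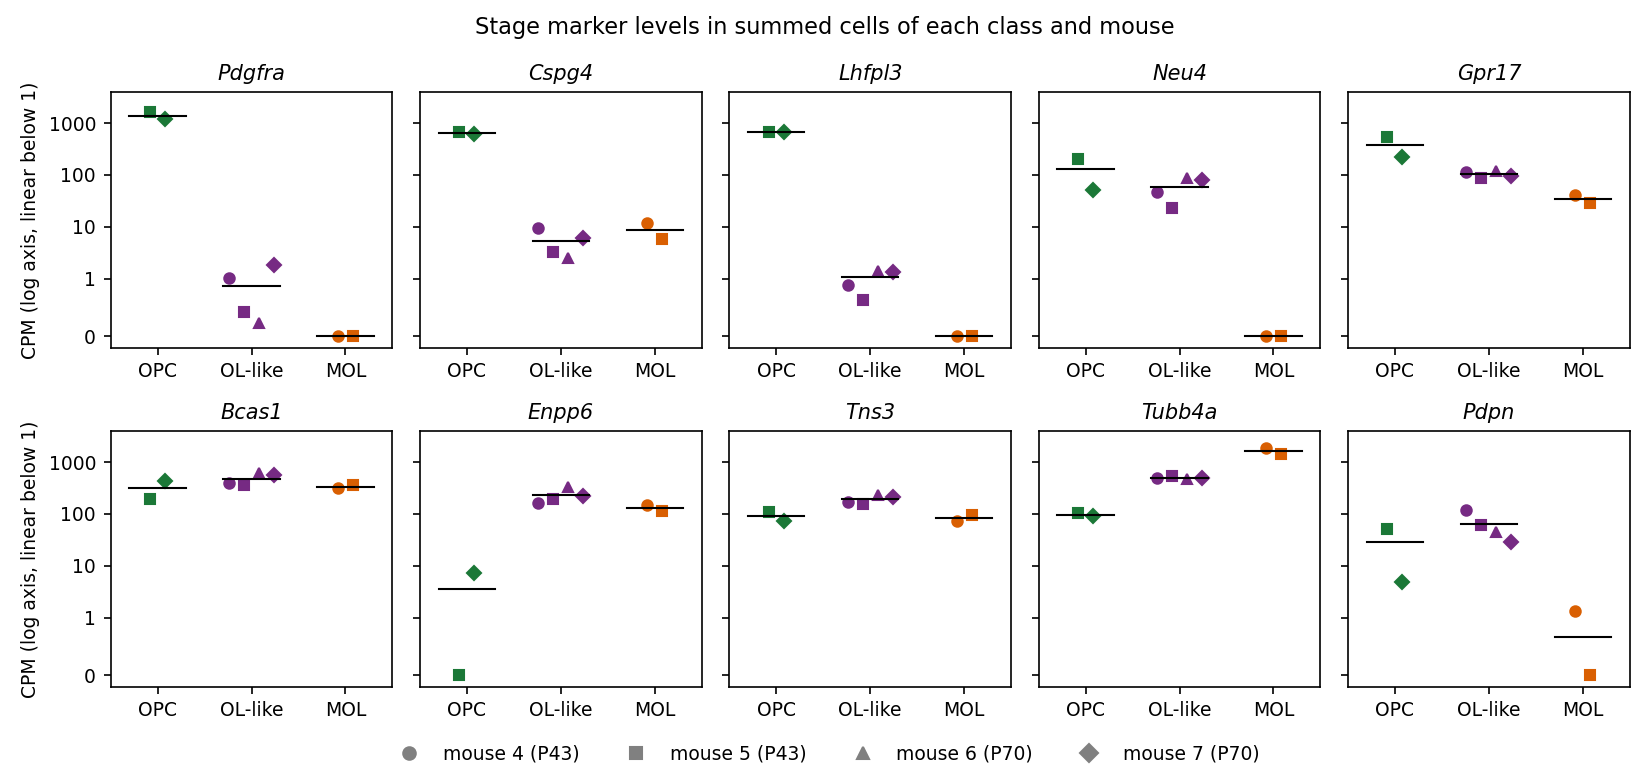
Levels of the 10 stage markers (CPM, logarithmic above 1 and linear below) in the summed cells of OPC (mice 5 and 7), OL-like cells (4 mice) and MOL (mice 4 and 5); each point is 1 mouse and each bar the mean of the points. Pdgfra, Cspg4 and Lhfpl3 are high in OPC alone, Enpp6 is near 0 in OPC alone, and Tubb4a rises from OPC over OL-like cells to MOL.

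The question of the first comparison was whether OL-like tumor cells resemble precursors in these genes. The 3 precursor members were nearly absent from OL-like cells as named here. This can be in part set by the naming, because precursors that carry the transgene can be counted as OPC. Pdgfra, the growth factor receptor of precursors, stood at 1612 and 1192 CPM in the OPC of mice 5 and 7, and at 1.01, 0.415, 0.232 and 1.84 CPM in the OL-like cells of mice 4 to 7. The groups lay nearly 3 orders of magnitude apart, with a log2 fold change of -9.63 ± 0.48 (SE; OL-like against OPC; edgeR quasi-likelihood test with Benjamini-Hochberg adjustment, adjusted p = 8.75e-09). Lhfpl3, which encodes a tetraspan membrane protein, stood at 671 and 673 CPM in OPC and at 0.623 to 1.39 CPM in OL-like cells (log2 fold change -8.91 ± 0.39, adjusted p = 4.38e-09 in edgeR). Pdgfra and Lhfpl3 passed the filter on low counts only through the OPC sums, where they are high. Their calls are thus no independent support. Cspg4 stood at 684 and 628 CPM in OPC and at 9.51, 3.32, 2.55 and 5.98 CPM in OL-like cells (log2 fold change -6.72 ± 0.32, adjusted p = 4.38e-09 in edgeR).

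Cspg4 and Pdgfra were not specific to precursors in these tumors. Mural cells, the pericytes, smooth muscle cells and fibroblasts of vessels, held 378 to 1095 CPM of Cspg4, as pericytes also make NG2, and 0 to 39.6 CPM of Pdgfra. OL-like cells of mouse 4 held the highest level of Cspg4 of the 4 mice. All 9 mural markers of the list were detected in them, as also in those of mouse 6, which held the lowest level of Cspg4. The mural markers summed to 210.5 CPM in mouse 4 against 3.03 to 37.5 CPM in the other mice. Endothelial markers were also highest in mouse 4, at 171.9 CPM against 0.793 to 28.9 CPM. The part of mural RNA in the Cspg4 level of mouse 4 was not tested. Lhfpl3 was at 0 in the mural cells of all 4 mice.

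The committed stage is marked by Gpr17 and Neu4. Gpr17, a receptor that is switched on for a short time after commitment and off before myelination, stood at 548 and 227 CPM in OPC, at 113, 87.6, 117 and 95.5 CPM in OL-like cells and at 40.8 and 29 CPM in MOL. The 3 classes did not overlap. The OL-like level was lower than in OPC (log2 fold change -1.59 ± 0.29, adjusted p = 0.00092 in edgeR) and higher than in MOL (1.66 ± 0.32, adjusted p = 0.000719 in edgeR). Both calls were lost when cells were thinned to 2000 UMIs (adjusted p = 0.336 and 0.0701 in edgeR), a setting in which OPC came from mouse 7 alone.

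Neu4 encodes a sialidase that precursors and committed cells make. It stood at 206 and 50.7 CPM in the OPC of mice 5 and 7, at 47.2, 23.1, 86.8 and 81 CPM in OL-like cells, and at 0 UMIs in MOL of both mice. OL-like cells and OPC overlapped, and the fitted difference missed the threshold (log2 fold change -0.82, 95% interval -2.04 to 0.414, adjusted p = 0.332 in edgeR). The 2 mice that held both classes disagreed, since OL-like cells were lower than OPC in mouse 5 and higher in mouse 7. Without mouse 7 the log2 fold change was -2.57 (adjusted p = 2.16e-06 in edgeR), with mouse 5 as the only OPC sum and its spread taken from the other sums. The sign turned to positive without a call when cells were thinned (0.95), under a 10% mitochondrial limit (1.26) and with OPC free of transgene UMIs (0.80). In these settings mouse 5 held 17, 17 and 7 OPC, under the minimum of 20. OPC thus came from mouse 7 alone, and the setting cannot be told apart from the loss of mouse 5. Against MOL, with 3 UMIs over both MOL sums taken as the limit that a count of 0 allows, Neu4 was at least 21-fold higher in OL-like cells of the same mice (adjusted p = 0.000386 in edgeR).

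The newly formed stage members were higher in OL-like cells than in OPC, by amounts that differed widely. Enpp6, a choline-specific phosphodiesterase that appears when oligodendrocytes are born, was at 0 UMIs in OPC of mouse 5 and 3 UMIs (7.24 CPM) in OPC of mouse 7, and at 166, 193, 331 and 226 CPM in OL-like cells. Over the 2 mice that held both classes, the OL-like level was 42-fold the OPC level (counting interval 14.4 to 204), and the call was made in the fit (adjusted p = 3.47e-06 in edgeR). MOL held 146 and 116 CPM of Enpp6, and here the difference from OL-like cells missed the threshold (log2 fold change 0.45, 95% interval -0.189 to 1.08, adjusted p = 0.251 in edgeR). These MOL levels average over unlike clusters, described below, so the result depends on their mix. In mice 4 and 5, cluster M6 held 335 and 276 CPM and cluster M5 14.6 and 13.3 CPM. Cluster M7 of mouse 4 held 0 UMIs, which allows up to 82.4 CPM.

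Tns3, a focal adhesion protein of newly formed oligodendrocytes, was higher in OL-like cells than in either OPC or MOL. It stood at 110 and 72.4 CPM in OPC, at 169, 156, 235 and 215 CPM in OL-like cells and at 73.7 and 94 CPM in MOL. Every OL-like sum lay above every OPC and MOL sum. Tns3 was 2.83-fold higher than in OPC (adjusted p = 0.00277) and 2.03-fold higher than in MOL (adjusted p = 0.00812) in edgeR. Without mouse 4, which leaves mouse 5 as the only MOL sum, the second log2 fold change was 0.89 and missed the threshold (adjusted p = 0.217 in edgeR). Tns3 is not confined to the lineage: myeloid cells held 66.5 to 94.3 CPM, mural cells 96.4 to 131.2 CPM, and astrocyte-like tumor cells of mouse 7 184.9 CPM. The mature-marker cells with intermediate transgene counts held 174.3 CPM in mouse 4 and 273.6 CPM in mouse 7, above the OL-like sums of these mice.

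Bcas1, which marks early myelinating oligodendrocytes, separated the classes least. Its level was 194 and 430 CPM in OPC, 398, 362, 606 and 556 CPM in OL-like cells, and 321 and 357 CPM in MOL. OPC of mouse 7 lay above 2 of the 4 OL-like sums. The fit called Bcas1 2.03-fold higher in OL-like cells than in OPC (adjusted p = 0.0418 in edgeR), a call close to the threshold that DESeq2 did not make (adjusted p = 0.0593). Against MOL its log2 fold change was 0.06 (95% interval -0.599 to 0.72, adjusted p = 0.895 in edgeR), and with DESeq2 size factors it was -0.06 (adjusted p = 0.92).

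Tubb4a, a beta-tubulin of oligodendrocytes and neurons, rose over the 3 classes. It stood at 103 and 91.7 CPM in OPC, at 498, 540, 480 and 491 CPM in OL-like cells and at 1851 and 1435 CPM in MOL. No class overlapped another, and the OL-like sums of the 4 mice lay within a narrow range. OL-like cells held 6.61-fold more than OPC (adjusted p = 0.000149) and MOL held 3.17-fold more than OL-like cells (adjusted p = 0.000867) in edgeR. Without mouse 4, again with mouse 5 as the only MOL sum, the comparison with MOL kept its direction and missed the threshold (log2 fold change -1.445, adjusted p = 0.0865 in edgeR).

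Pdpn, which encodes the membrane glycoprotein podoplanin, was present in OL-like cells and nearly absent from MOL. Its levels in OL-like cells were 118, 60.9, 44.7 and 28.9 CPM in mice 4 to 7, in OPC 51.6 CPM (8 UMIs) and 4.83 CPM (2 UMIs), and in MOL 1 UMI in mouse 4 and 0 in mouse 5. Over mice 4 and 5 the OL-like level was 159-fold the MOL level (counting interval 28.4 to 6270; adjusted p = 1.06e-06 in edgeR). The call against OPC rests on 10 OPC UMIs (adjusted p = 0.0377 in edgeR) and was lost in DESeq2 (adjusted p = 0.21) and without mouse 6 or mouse 7 (adjusted p = 0.0528 and 0.378 in edgeR), the latter with mouse 5 as the only OPC sum.

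Counted together, 5 members were higher and 4 lower in OL-like cells than in OPC, and 1 was not called, where 23.2% of all 11639 genes tested were called, 11.2% higher and 11.9% lower. Against MOL, 4 members were higher, 1 was lower and 5 were not called, where 42% of the genes tested were called, 23.9% higher and 18.1% lower. Of these 5, Pdgfra and Lhfpl3 had 11 UMIs each in the OL-like cells of mice 4 and 5 (0.8 CPM) and 0 in MOL, whose fewer UMIs allow more than that level, so no fold is given. Between OPC and MOL, 6 members were higher in OPC and 2, Enpp6 and Tubb4a, were lower, where 23.5% of the genes were called, 12.9% higher and 10.6% lower. The counts that involve OPC include Pdgfra and Lhfpl3, which entered the test only through the OPC sums. The median log2 fold change over the 10 members was 0.105 for OL-like cells against OPC, where the median over all genes was 0.134, since rises and falls offset each other. Because the mouse is a term of the fit and few mice held both classes, the comparison with OPC rests on mice 5 and 7 and the comparison with MOL on mice 4 and 5, with 2 residual degrees of freedom. Only mouse 5, with 23 OPC and 64 MOL cells, held sums of both OPC and MOL.

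**Figure D2:**
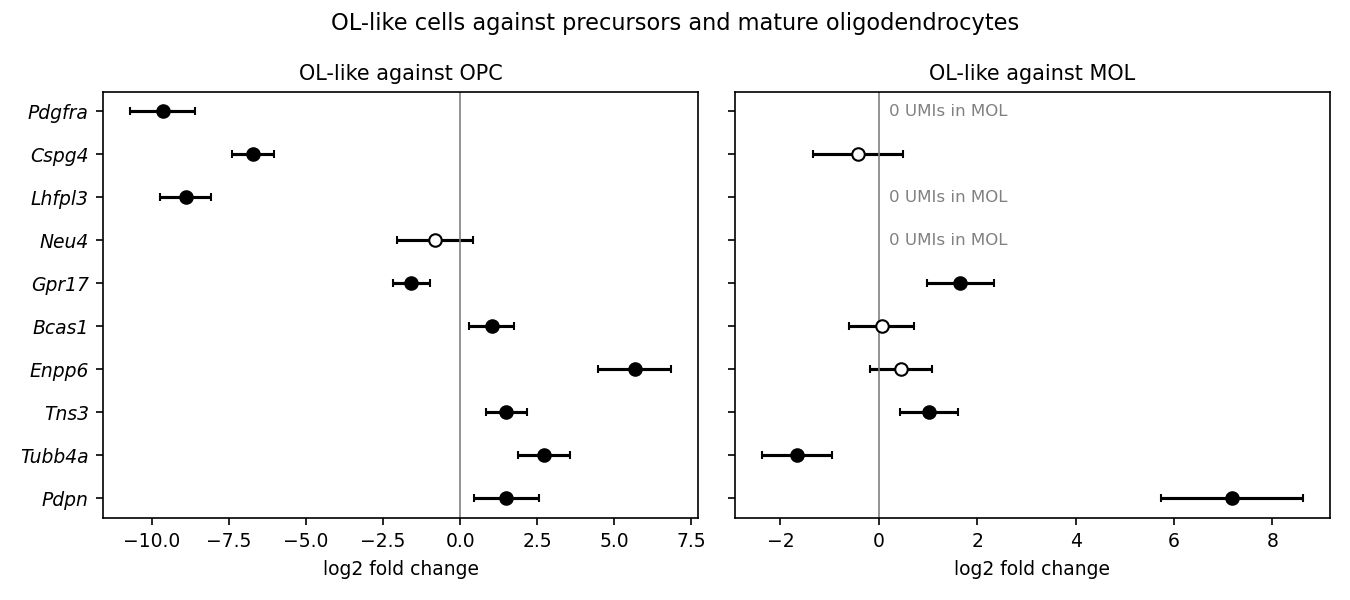
Log2 fold changes of the 10 members in OL-like cells against OPC (left) and against MOL (right) from the edgeR fit, with 95% intervals; filled points passed an adjusted p of 0.05 and open points did not, and members with 0 UMIs in MOL carry no point. Pdgfra, Cspg4 and Lhfpl3 lie far to the left against OPC, Enpp6 lies at 5.66, and Bcas1 and Enpp6 lie near 0 against MOL.

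Other genes of the same stages were then counted from 3 lists without members in them. All 10 precursor genes were lower in OL-like cells than in OPC, with a median log2 fold change of -4.72 where the median over all genes was 0.134. Of all genes tested, 11.9% were called lower. The largest falls were in Pcdh15 (-8.94 ± 0.46, SE), a cadherin, Sox5 (-7.01 ± 0.69), a transcription factor, Xylt1 (-6.94 ± 0.38), which starts the sugar chains of proteoglycans, and the proteoglycan Cspg5 (-6.59 ± 0.41), with adjusted p between 7.465e-09 and 3.54e-06 in edgeR. Sox5 also passed the filter only through the OPC sums, and the falls of this list can be in part set by the naming. The precursor list summed to 6792 and 5054 CPM in OPC, to 203, 248, 607 and 321 CPM in OL-like cells and to 88.2 and 116 CPM in MOL. Against MOL, 3 of the 10 were higher in OL-like cells (Sox6, Tnr and Serpine2), 1 was lower (Pcdh15) and 6 were not called. These counts are near the shares over all genes tested, of which 23.9% were called higher and 18.1% lower. Sox6, a transcription factor of precursors, stood at 28.5, 5.4, 83.3 and 61.6 CPM in OL-like cells, at 316 CPM in both OPC sums and at 0 UMIs in MOL. Tnr, which encodes the matrix protein tenascin-R, stood at 51.1, 15.8, 173 and 78.8 CPM in OL-like cells and at 980 and 541 CPM in OPC.

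Of the premyelinating list, 13 of 14 genes passed the filter on low counts. The list summed to 1200, 1764, 1866 and 1317 CPM in the OL-like cells of mice 4 to 7. It summed to 1748 and 1154 CPM in OPC and to 1854 and 1951 CPM in MOL, so the OL-like sums overlapped both. Against OPC, 7 genes were higher in OL-like cells, 4 were lower and 2 were not called, where 11.2% of all genes tested were higher and 11.9% lower. The rises were led by Bmp4, a secreted morphogen of committed cells, at 131, 122, 167 and 118 CPM in OL-like cells, 6.45 and 0 CPM in OPC and 2.63 and 1.16 CPM in MOL. Cnksr3, Kif19a and Myrf followed with log2 fold changes of 5.05, 3.62 and 3.58. Itpr2, Fyn, Nkx2-2 and Pcdh17, named after their values were seen, ran the other way, with every OL-like sum below both OPC sums. In OPC they stood at 355 and 217, 451.5 and 331, 129 and 55.5, and 555 and 335.5 CPM. In OL-like cells they stood at 23.7 to 208, 111 to 266, 17.9 to 36.8 and 151 to 280 CPM. Myrf, the transcription factor that switches on myelin genes, stood at 111 to 231 CPM in OL-like cells, at 19.3 and 19.4 CPM in OPC and at 279 and 320 CPM in MOL. Against MOL, 7 were higher, 2 were lower (Nfasc and Myrf, named after their values were seen) and 4 were not called. Of all genes tested, 23.9% were called higher and 18.1% lower than in MOL. Bmp4 (log2 fold change 6.11 ± 0.51), Kif19a (6.59 ± 0.80), Cnksr3 (2.66 ± 0.39) and Tcf7l2 (2.35 ± 0.32), a transcription factor of newly formed oligodendrocytes, were higher in OL-like cells, with adjusted p between 3.78e-07 and 6.84e-05 in edgeR.

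The myelin list was counted last, and its place in OL-like cells above OPC can be in part set by the naming. All 13 genes were lower in OL-like cells than in MOL, with a median log2 fold change of -4.38, and 9 of 13 were higher than in OPC, the other 4 not called. Over all genes tested, 18.1% were called lower than in MOL and 11.2% higher than in OPC. The list made up 11.4% and 11.1% of all UMIs in MOL, 0.803% to 0.948% in OL-like cells and 0.051% and 0.0623% in OPC. Aspa, which breaks down N-acetylaspartate in oligodendrocytes, stood at 17.9, 10.6, 5.09 and 21.8 CPM in OL-like cells, at 0 UMIs in OPC and at 508 and 675 CPM in MOL. Klk6 and Hapln2, genes of late oligodendrocytes, were nearly absent from OL-like cells, Klk6 with 0 UMIs in 3 mice and 0.036 CPM in mouse 7, and Hapln2 at 0.504 to 1.85 CPM. A gene that takes up a large share of a library lowers the CPM of all others, and the median log2 fold change over all genes against MOL was 0.27 with TMM and 0.13 with DESeq2 size factors. No member call against MOL was lost or gained with DESeq2.

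Shares of cells were compared at an equal depth of 2000 UMIs per cell, leaving out 1169 shallower OL-like cells, 1062 of them in mouse 4. At least 1 UMI of Enpp6, Bcas1 or Tns3 was found in 72%, 71.7%, 79.5% and 79.1% of the OL-like cells of mice 4 to 7, in 58.8% and 59.4% of OPC and in 59.7% and 65.6% of MOL. For Enpp6 alone the shares were 30.6%, 28.3%, 45.2% and 33.4% in OL-like cells, 0 of 17 cells (which allows up to 17.6%) and 3.12% in OPC, and 22.6% and 23.4% in MOL. Endothelial cells, which should lack these genes, served as the background: at the same depth Enpp6 was found in 0 of 200, 0.252% and 0.667% of those of mice 4, 5 and 6, whose median depths were 1669.5 to 3644.5 UMIs before thinning. In mouse 7 only 10 endothelial cells were this deep, 0 with Enpp6, which allows up to 30%. Before thinning, Enpp6 stood at 33 CPM (3 UMIs) in the endothelial and 137.4 CPM (8 UMIs) in the lymphoid cells of mouse 7, against 2.04 to 4.14 CPM in the endothelial cells of the other mice. Bcas1 was found in 0.252% to 0.667% and Tns3 in 0% to 2% of the endothelial cells of mice 4, 5 and 6. Myeloid cells, which express Tns3, had been the background planned at first. Any of the 3 genes was found in 15.25% to 19.7% of them.

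Pdgfra was found in 2 of 719 OL-like cells of mouse 4, in 3 of 2106 of mouse 7 and in none of mice 5 and 6, where 0 of 212 and 0 of 341 cells allow up to 1.415% and 0.88%. Endothelial cells showed 1 of 397 in mouse 5 and none of 200, 150 and 10 cells in mice 4, 6 and 7, so at this depth the OL-like shares could not be told from background. In OPC the shares were 76.5% and 87.5%. A cell with Pdgfra or Cspg4 together with Enpp6, Bcas1 or Tns3 was seen in 1.67%, 0.472%, 0% and 0.997% of OL-like cells, against 52.9% and 56.25% of OPC. A cell with Gpr17 or Neu4 together with Enpp6, Bcas1 or Tns3 was seen in 20.6%, 10.4%, 24.6% and 24.4% of OL-like cells. The shares were 47.1% and 21.9% in the OPC of mice 5 and 7, and 4.84% and 1.56% in MOL, so this pair was not particular to OL-like cells. No doublet caller was run. Each droplet with 2 cells under the upper limit of 40000 UMIs remains and can give such a pair.

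**Figure D3:**
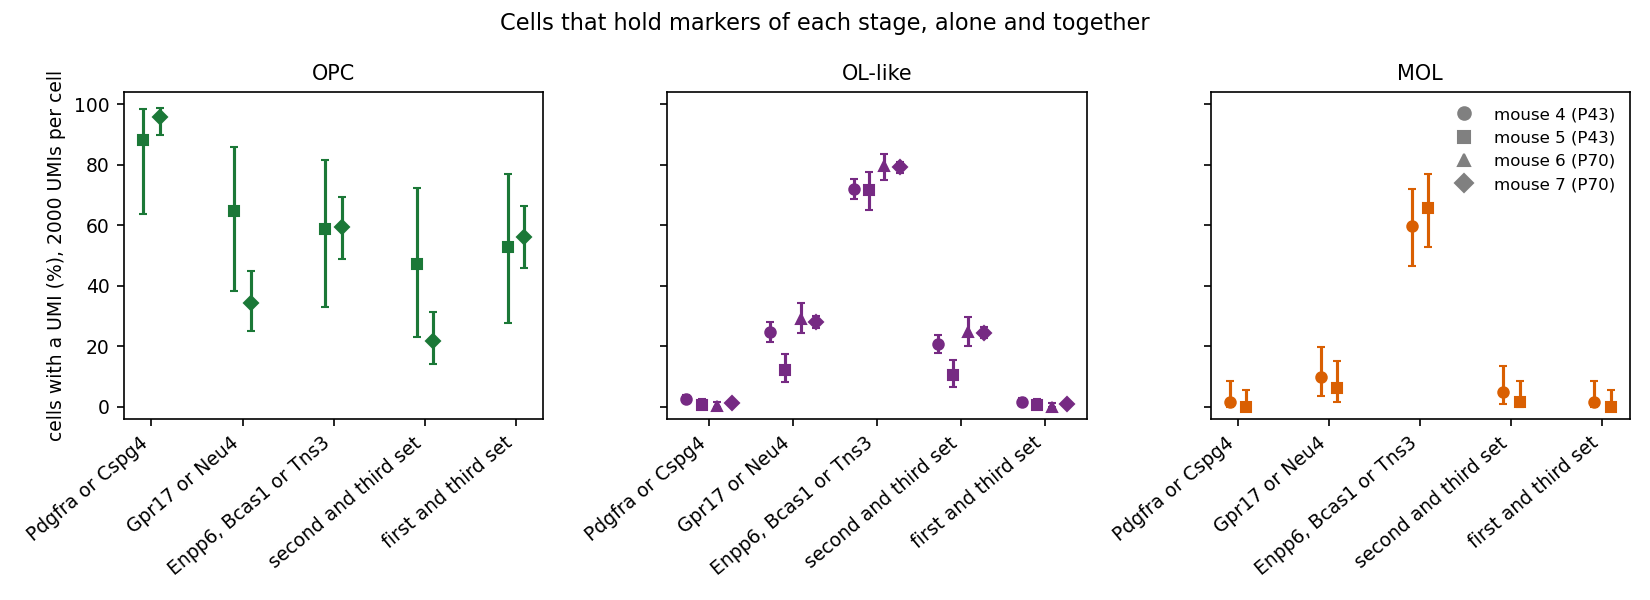
Share of cells (%) with at least 1 UMI of Pdgfra or Cspg4 (the first set), of Gpr17 or Neu4 (the second set), of Enpp6, Bcas1 or Tns3 (the third set), and of 2 sets together, at 2000 UMIs per cell; each point is 1 mouse and bars are 95% exact binomial intervals, which cover counting error only. The first set is found in most OPC and in no more than 2.5% of the OL-like cells of any mouse, while the third set is found in 71.7% to 79.5% of OL-like cells.

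Genes per cell gave the same order for the precursor and myelin lists. At 2000 UMIs, an OL-like cell held UMIs of 0.348 to 0.815 of the 10 precursor genes on average, an OPC 6.12 and 5.17, and a MOL 0.0968 and 0.297. For the 13 myelin genes the averages were 4.54 to 5.26 in OL-like cells, 0.824 and 0.948 in OPC and 9.98 and 10.05 in MOL. For the 14 premyelinating genes the classes overlapped, at 1.86 to 2.57 in OL-like cells, 3.06 and 1.85 in OPC and 2 and 2.02 in MOL.

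OL-like cells were not uniform, and the 6 clusters that formed the class differed in the members. Cluster 0 (1350 cells), which showed few cycle genes, held 83.2 to 130.7 CPM of Gpr17 and 422 to 682 CPM of Bcas1 in each mouse. Clusters 4 (947 cells, led by histone genes of S phase) and 7 (708 cells, led by genes of mitosis such as Cdc20 and Ccnb2) held 302 to 518 CPM of Bcas1. Clusters M0 (253 cells, 247 of them in mouse 7) and M4 (107 cells, 96 of them in mouse 6) had more of the mature markers raised, 7 and 5 of 8 against none in the other OL-like clusters. M0 and M4 held 319 and 557 CPM of Enpp6, 724 and 954 CPM of Bcas1, 296 and 390 CPM of Tns3, and 1033 and 1049 CPM of Tubb4a. Cluster 0 of the same mice held 216 and 360 CPM of Enpp6, 619 and 682 CPM of Bcas1, 227 and 253 CPM of Tns3, and 400 and 297 CPM of Tubb4a. Neu4 stood at 94.2 and 122 CPM in M0 and M4 and at 90.6 and 81.8 CPM in cluster 0 of these mice. Pdpn stood at 4.71 and 27.5 CPM in M0 and M4, below the 29.1 and 66 CPM of cluster 0. As each of these 2 clusters comes almost wholly from 1 mouse, cluster and mouse cannot be told apart, and the cluster values are descriptions without a test.

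Cluster 2 held most of the shallow OL-like cells, with a median of 976.5 UMIs and 1013 of its 1182 cells in mouse 4. Its mouse 4 cells held 33.9 CPM of Cspg4, 6.79 CPM of Pdgfra (7 UMIs) and 159 CPM of Pdpn. Cluster 0 of that mouse held 5.21, 0.652 (2 UMIs) and 92.6 CPM. In mouse 7 Cspg4 and Pdpn were lower in cluster 2, at 1.31 (1 UMI) and 22.2 CPM against 4.98 and 29.1 CPM in cluster 0. Pdgfra was at 0 UMIs in cluster 2 of mouse 7, which allows up to 3.925 CPM, and at 0.766 CPM in cluster 0. In mouse 5 Cspg4 was higher in cluster 2 (18.4 CPM from 2 UMIs, against 3.035 CPM). Pdpn was lower there, at 18.4 CPM (2 UMIs) against 47.95 CPM. Pdgfra was at 0 UMIs there, which allows up to 27.57 CPM, against 0.607 CPM (1 UMI). Mouse 6 had only 14 cells in cluster 2.

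Among mature cells, Enpp6 divided 2 clusters in both mice. In M6 (61 cells, led by Hapln2 and Klk6) it stood at 335 CPM in mouse 4 and 276 CPM in mouse 5, and in M5 (68 cells, led by Mal, Mog and Opalin) at 14.6 and 13.3 CPM. Gpr17 ran the other way, at 73.2 and 45.7 CPM in M5 and at 0 and 2.97 CPM in M6. Bcas1 did not separate these clusters, at 271 and 354 CPM in M5 and 348 and 362 CPM in M6. Over all mice, M5 held 23.3 CPM and M6 18.3 CPM of the transgene features. In the mature-marker cells with intermediate transgene counts, Neu4 was at 2.55 to 17 CPM, below most OL-like sums, and Tubb4a at 1249 to 2021 CPM, near the range of the MOL clusters (1351 to 1964 CPM).

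**Figure D4:**
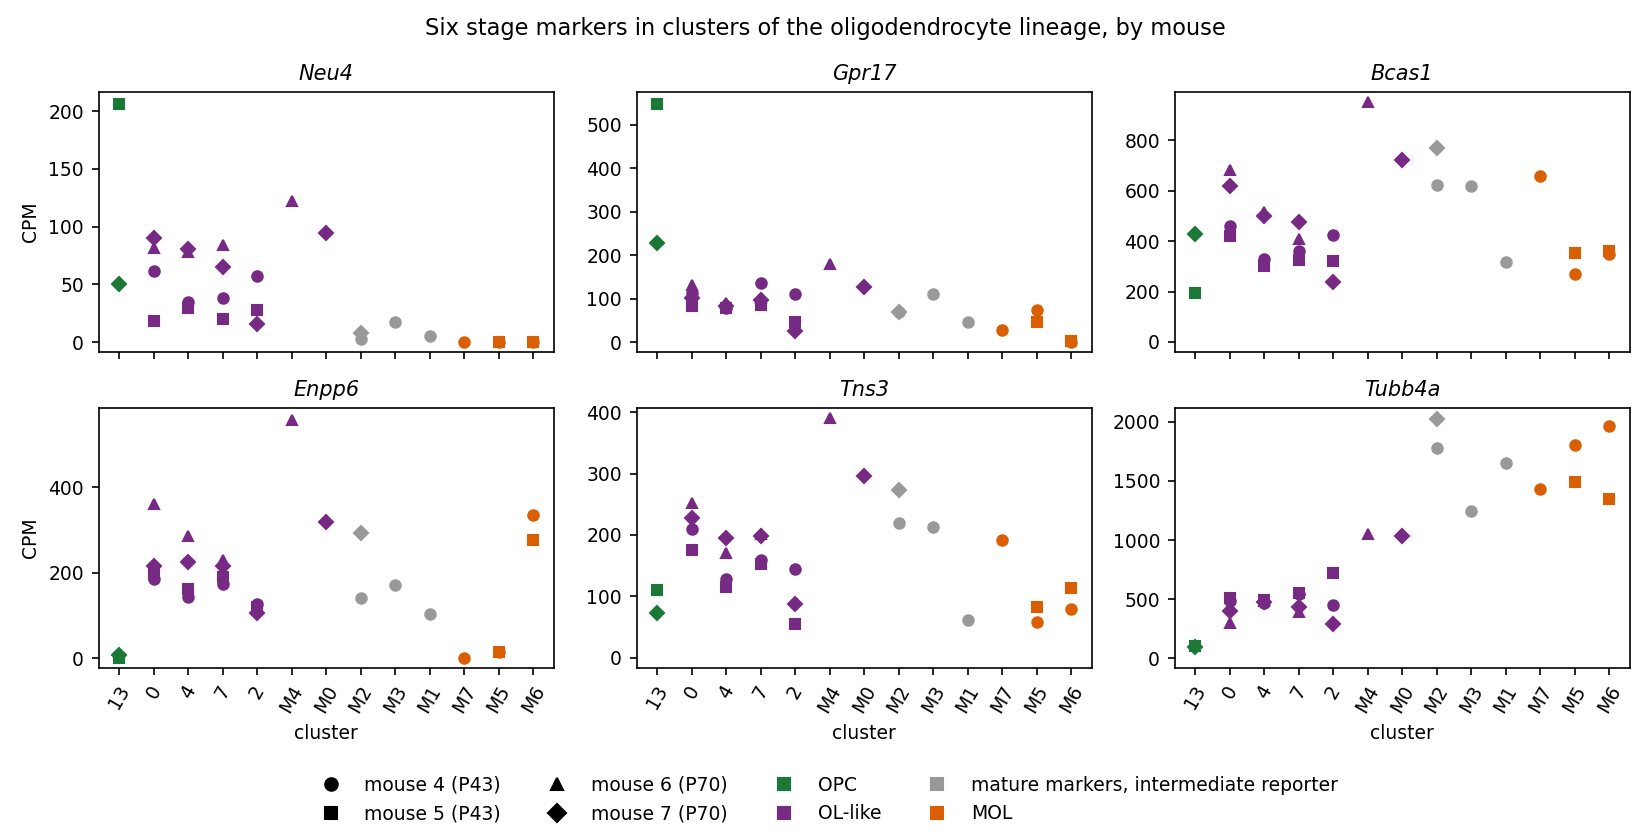
CPM of 6 members in each cluster of the lineage with at least 20 cells of a mouse, from OPC (13) over OL-like clusters (0, 4, 7, 2, M4, M0) and mature-marker clusters with intermediate transgene counts (M2, M3, M1) to MOL (M7, M5, M6); each point is 1 mouse. Enpp6, Bcas1 and Tns3 are highest among OL-like clusters in M4, Tubb4a is lowest in OPC and lies between 1249 and 2021 CPM in the intermediate and MOL clusters, and Enpp6 is near 0 in M5 and high in M6.

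The next comparison asked whether OL-like cells of P70 differ from those of P43. In edgeR 0 of 11550 genes passed (0% called), with 517 genes at an unadjusted p under 0.05, and DESeq2 called 42 genes, none of them a member. Of the 10 members, 8 passed the filter, and Pdgfra and Lhfpl3 did not. Neu4 was 47.2 and 23.1 CPM at P43 and 86.8 and 81 CPM at P70, which gave a log2 fold change of 1.20 ± 0.36 (SE) (95% interval 0.28 to 2.12, adjusted p = 0.9997 in edgeR). Pdpn was 118 and 60.9 CPM at P43 and 44.7 and 28.9 CPM at P70 (log2 fold change -1.33 ± 0.41). Bcas1, at 0.56 ± 0.18, Enpp6, at 0.58 ± 0.28, and Tns3, at 0.42 ± 0.19, were each higher in both P70 mice than in either P43 mouse. The class held different clusters at the ages, as M0 and M4 came almost wholly from P70 and cluster 2 mostly from mouse 4. Within cluster 0, Bcas1 stood at 459.9 and 422 CPM at P43 and 682 and 619 CPM at P70, Enpp6 at 185 and 197 against 360 and 216 CPM, and Tns3 at 209.6 and 175 against 253 and 227 CPM. Tubb4a was lower in both P70 mice (log2 fold change -0.15 ± 0.17), and Gpr17 and Cspg4 overlapped between ages. So 6 of 8 members tested did not overlap between ages, 4 higher and 2 lower at P70, where 30.4% of all genes tested did not, 19.1% higher and 11.3% lower. With 2 mice at each age these differences did not pass. With this number of mice the same test recovered 70% of simulated 4-fold changes, and changes as small as those of the members were not simulated. Without the cycling cells, edgeR again called 0 genes, with 456 at an unadjusted p under 0.05.

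In the normal lineage the precursors are the cells that divide, so cycling and other OL-like cells were compared within each mouse. A cell was called cycling when it held at least 2 of 8 cycle genes at 2000 UMIs, which gave 394, 94, 146 and 831 cycling and 325, 118, 195 and 1275 other cells in mice 4 to 7. Bcas1 was lower in the cycling cells of all 4 mice, at 358, 318, 482 and 482 CPM against 425, 396, 671 and 614 CPM in the other cells (log2 fold change -0.36 ± 0.05, SE, adjusted p = 8.09e-06 in edgeR). Tns3 was also lower in all 4 mice, at 158, 138, 169 and 191 CPM against 182, 170, 276 and 235 CPM (-0.37 ± 0.07, adjusted p = 0.000204 in edgeR). Enpp6 was lower in 4 of 4 mice and Gpr17 in 3 of 4, both by less than 0.25 on the log2 scale (adjusted p = 0.0273 and 0.0401 in edgeR). Pdpn was higher in 3 of 4 mice (log2 fold change 0.35 ± 0.11, adjusted p = 0.0246 in edgeR).

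Of the 8 members that passed the filter, 1 was higher, 4 were lower and 3 were not called, where 24.5% of all genes tested were called, 11.9% higher and 12.5% lower. Cspg4 was higher in the cycling cells of 4 of 4 mice without passing (log2 fold change 0.44, 95% interval -0.0672 to 0.941, adjusted p = 0.206 in edgeR). Pdgfra was too low to test: the cycling cells of mice 4 to 7 held 1, 0, 0 and 36 UMIs of it and the other cells 1, 2, 1 and 15 UMIs. In mouse 7, which alone held more than 2 in either group, this was 2.97 CPM in cycling and 0.961 CPM in other cells. In the lists, 9 of 11 myelin genes tested and 6 of 13 premyelinating genes were lower in cycling cells, led by Gjb1 (log2 fold change -1.15 ± 0.21), Aspa (-0.83 ± 0.14), Nfasc (-0.75 ± 0.05) and Car2 (-0.70 ± 0.11). Of the 8 precursor list genes tested, 1 was higher in cycling cells (Emid1, 0.75 ± 0.27), 2 were lower (Luzp2, -0.45 ± 0.07, and Sox6, -0.30 ± 0.10) and 5 were not called. Anln (1.23 ± 0.12), the only myelin list gene that was higher, encodes anillin, a protein of cell division. Without the mouse term, 304 genes were called in place of 2533 and none of the 5 member calls held (adjusted p 0.457 to 0.988). The Enpp6, Gpr17 and Pdpn calls were also lost in DESeq2 (adjusted p = 0.146, 0.241 and 0.353), and the Tns3 call when cells were thinned to 2000 UMIs (adjusted p = 0.136 in edgeR).

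Whether the difference between cycling and other cells changed with age was tested by an interaction term. None of the 8 members tested was called, where 8 of 11015 genes (0.0726%) were, 0.0454% higher and 0.0272% lower. Gpr17 came closest, with a difference between ages of -0.32 ± 0.14 on the log2 scale (SE, adjusted p of 1 in edgeR).

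**Figure D5:**
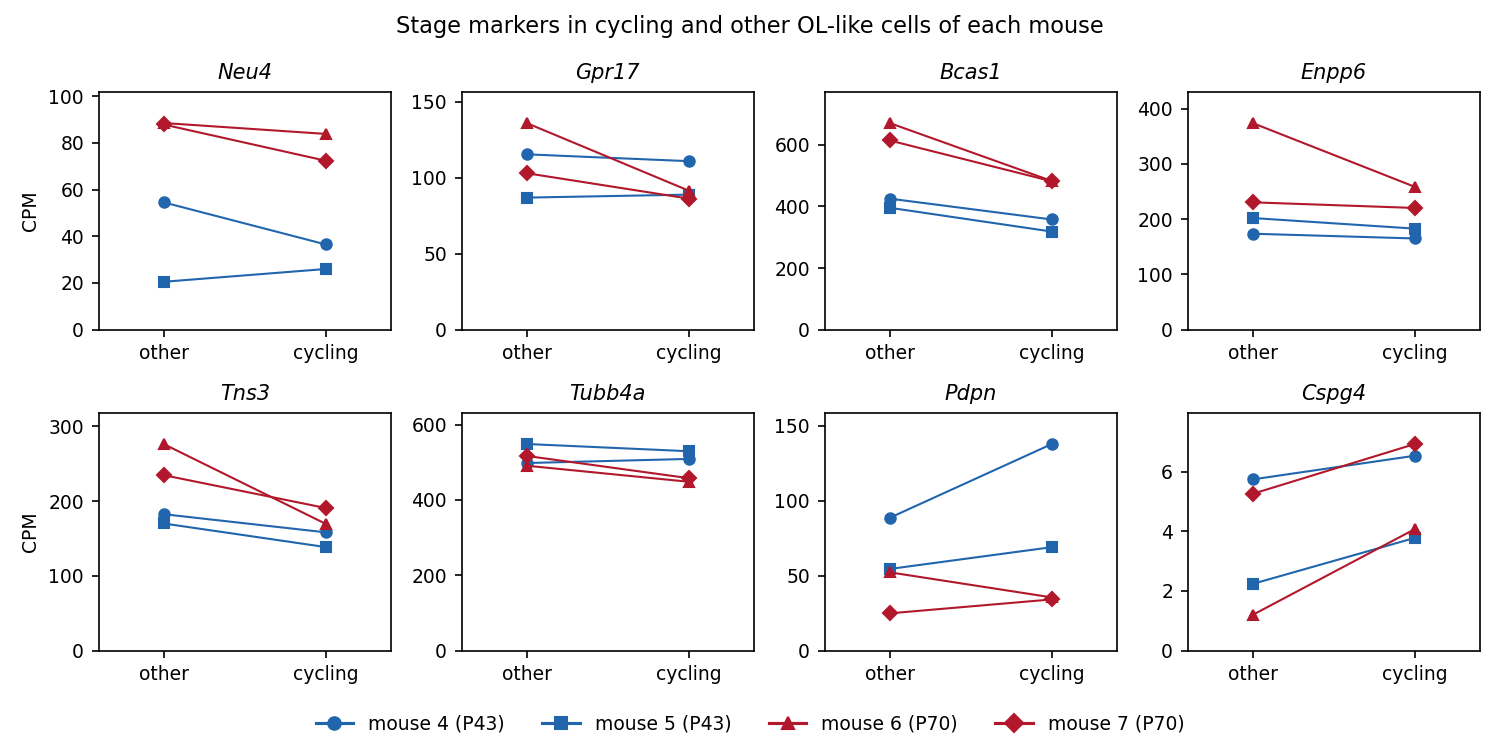
CPM of 8 members in the other and the cycling OL-like cells of each mouse; a line joins the 2 values of 1 mouse, blue for P43 and red for P70, and each panel has its own axis from 0. Bcas1 and Tns3 fall from other to cycling cells in all 4 mice, and Neu4 and Bcas1 lie higher at P70 than at P43.

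The genes whose pattern was most like a member's were ranked by Pearson's r of log2(CPM + 5) over 35 sums of 11 cell classes, as a description, since sums of a mouse share a library and its depth. Lhfpl3 was most like Sall3 (r = 0.968), Neto1 and Shisa7, and Pdgfra most like Tmem255b (0.922), Mro and Vxn. Gpr17 was most like Nkx2-2 (0.918), Olig2 and Sox21, and Bcas1 most like Gjc3 (0.949), Gal3st1 and Sox10. Enpp6 was most like Atp10b (0.892), Barx2 and Lingo2, Neu4 most like Tnr (0.892), Shisal1 and Scrg1, and Tubb4a most like Map1a (0.918), Mapk8ip1 and Rab33a. Cspg4, which mural cells share, was most like Ntn1 (0.941), Cys1 and Prkg1. Tns3 and Pdpn had looser neighbours, Specc1 (0.854) and Ndrg2 (0.853) in the lead.

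Other tumor cells held some of the members. Astrocyte-like tumor cells, which carry the transgene and astrocyte genes, held 111 CPM of Pdpn in mouse 6 and 253.5 CPM in mouse 7, the second being the highest of any class and mouse with at least 20 cells. Bcas1, Enpp6 and Gpr17 stood at 168.7, 67.8 and 62.2 CPM in the astrocyte-like cells of mouse 7, and at 41.5, 6.92 and 3.46 CPM in those of mouse 6. Neuroblast-like tumor cells of mouse 7 held 12.8 CPM of Bcas1 and 2.46 CPM of Enpp6.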

How the data were processed

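Brain tumors of 4 mice were profiled by 10x Genomics 3′ single-cell RNA sequencing. The authors aligned reads to mm10 extended by the 2 transgene features and counted UMIs with Cell Ranger 6.0.2, and the deposited values are raw UMI counts per gene and cell, with no normalization. Libraries at other ages were not analysed here. From the deposited counts, cells with at least 200 genes, fewer than 40000 UMIs and under 25% mitochondrial UMIs were kept and clustered in Seurat 5.3.0 (2000 variable genes, 30 principal components, resolution 0.5, mice integrated), with the members and the stage lists left out. Clusters with mature markers were clustered again without integration. Limits on transgene counts (tumor at least 500 CPM, MOL under 100 CPM) were set after seeing the data, and clusters with mature markers between them were left out. The OPC cluster had only to lie under 500 CPM, and was kept at 277 CPM in mouse 5 and 256 CPM in mouse 7. No doublet caller was run, and doublets were removed only as far as the upper limit of 40000 UMIs reaches.

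Counts were summed per class and mouse, with at least 20 cells per sum, and tested across all genes with the edgeR 4.0.16 quasi-likelihood test (TMM, Benjamini-Hochberg adjustment, threshold 0.05, R 4.3.3). Class and cycling fits had the mouse as a block, because the sums compared come from the same animal, so the pairing is that of the design. The test was checked on simulated data with 200 genes changed 4-fold, of which it recovered 76.5% for OL-like against MOL, 70.5% for OL-like against OPC and 100% for cycling cells. Alternatives were DESeq2 1.42.0, no filter, other cell limits and clusterings, thinning, no block, transgene counts per cell, and each mouse left out. A count of 0 was taken to allow 3 counts. Intervals on shares are exact binomial (95%), and intervals and limits cover counting error only. Total depth was 13106786 to 40621958 UMIs per library, so low levels in OPC and MOL sums are the least precise.

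The members and lists were chosen with earlier results of these data known. All 10 members are named. Of each list and comparison, at most 4 called genes with the largest absolute log2 fold change are named, apart from genes marked as named after their values were seen. For each member, the 3 other genes with the highest correlation are given, among genes with at least 50 CPM in a sum. Promoter sequences came from RefSeq (GRCm38.p6) and were cut to the 250 bases before the start.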

Additional observations from a re-analysis of the deposited data

How the results depend on the processing

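The counts of genes called in edgeR moved by over 1.5 times under these settings. OL-like against MOL (4886) gave 2836 when cells were thinned to 2000 UMIs. OL-like against OPC (2695) gave 1015 when thinned and 1289 when OL-like cells with a transgene UMI were set against OPC without one. OPC against MOL (2737) gave 1195 and 1801 under the same settings. Cycling against other cells (2533) gave 1128 in DESeq2 and 714 when thinned. P70 against P43 (0) gave 42 in DESeq2 and 5 with no filter. The change with age (8) gave 0 in DESeq2, with 94 genes at an unadjusted p under 0.05, and 53 with no filter.

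Leaving out each mouse gave 2867 to 5494 genes for OL-like against MOL, 2239 to 2582 for OL-like against OPC, 2055 to 2645 for OPC against MOL, 1345 to 2293 for cycling cells, 24 to 59 for the change with age, and 0 in every case for age. The lowest values for MOL and for cycling were without mouse 4 (2867) and without mouse 7 (1345). Class fits without mouse 5 were not run, because no residual degrees of freedom remain. Without mouse 7, Pdpn passed for the change with age (-1.08, adjusted p = 0.0196 in edgeR), with mouse 6 as the only P70 mouse. Wherever 1 sum is left in a group, it is assumed to vary like the others. The paired design matters most for cycling: with no replicate block 304 genes were called, 297 of them higher, against 1233 higher and 1300 lower with the block. For the class fits, without the block, 5254, 3184 and 3394 genes were called for OL-like against MOL, OL-like against OPC and OPC against MOL, and the OL-like against OPC calls on Bcas1 and Pdpn were lost (adjusted p = 0.0954 and 0.118), as was Pdpn between OPC and MOL (0.112).

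Of the member calls, 1 changed direction: Pdpn between OPC and MOL was -3.76, without a call, with transgene counts per cell, where OPC came from mouse 7 alone. Differences that were not called also changed sign, such as Bcas1 and Cspg4 against MOL and Neu4 against OPC. Genes found per OL-like cell fell at 1000 UMIs, from 2.13 to 1.31 of the members, from 0.545 to 0.31 of the precursor list, from 2.23 to 1.28 of the premyelinating list and from 4.83 to 3.68 of the myelin list. The causes were not tested. Of the members against OPC, Pdgfra, Cspg4, Lhfpl3, Enpp6, Tns3 and Tubb4a kept their call in each alternative run. The limits are few OPC and MOL cells, 2 mice for each of these classes, 2 mice per age, and OPC that carry some transgene UMIs.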
